A study of Homo sapiens with 48 samples.

Results

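Hic-5, paxillin and leupaxin are the members of the paxillin family of adaptor proteins, encoded by TGFB1I1, PXN and LPXN. They were taken as all array probes whose gene symbol in the platform annotation is one of these names, which gave 3 genes of 20046 named on the array and 4 probes of 47323: 2 for TGFB1I1 (ILMN_2389876 and ILMN_1773801), 1 for PXN (ILMN_1684440) and 1 for LPXN (ILMN_1742789). The study lowered Hic-5 with an siRNA and followed the response to dexamethasone, a synthetic glucocorticoid, so TGFB1I1 is the targeted gene and the other members are its closest relatives. Expression was measured on 48 Illumina HT-12 v4 bead arrays, on 6 slides. The cells were U2OS, a human osteosarcoma line, in a single clone that stably carries the wild-type rat glucocorticoid receptor alpha, so that all groups share the added receptor. There were 12 groups of 4 arrays: cells given 1 siRNA against Hic-5 (siHic5_2), cells given a nonspecific siRNA (siNS) and cells given none (NI), each after 0, 2, 4 or 24 h of hormone. The series' design text names the nonspecific agent shNS and calls the NI cells non-infected, while the sample labels name siNS, the name used here. Transfected wells received 60 pmol of siRNA, the hormone was added at different times, and every well was harvested together. Nothing in the labels says that the 4 arrays of a group came from separate cultures, and each p-value covers only how these samples vary, which may be technical variation.

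Each family member carries short leucine-rich LD motifs, which dock kinases and cytoskeletal proteins, and a run of LIM zinc-binding domains that anchors it at focal adhesions, the sites where integrins link the matrix to actin. Paxillin is the widely expressed member and a substrate of focal adhesion kinase. Hic-5 is induced by TGF-beta, also enters the nucleus and acts there as a coregulator of steroid receptors, including the glucocorticoid receptor. Leupaxin is best known from blood cells and osteoclasts, where it is part of adhesion signalling, and is also made by carcinoma lines.

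The genes lie at chr16:31472152-31477960 (TGFB1I1), chr12:120210447-120265730 (PXN) and chr11:58526871-58578891 (LPXN) in GRCh38.p14. RefSeq promoter windows of the same build, from 250 bases before to 50 after a start, were given for 3 starts of TGFB1I1, 2 of PXN and 2 of LPXN. None of the 7 windows held GNACA and TGTNC with 3 bases between them, a palindrome of the kind that the glucocorticoid receptor binds, and 0.39% of all 35116 windows did. The 250 bases before the outermost start of TGFB1I1 and of PXN are shown for their repeats of GGGCGG, the core letters of Sp1 sites, in capitals on either strand. Of all windows 45% held it, and so did 4 of the 7 member windows. The inner PXN window and the LPXN windows did not.
TGFB1I1, plus strand, chr16:31471902-31472151: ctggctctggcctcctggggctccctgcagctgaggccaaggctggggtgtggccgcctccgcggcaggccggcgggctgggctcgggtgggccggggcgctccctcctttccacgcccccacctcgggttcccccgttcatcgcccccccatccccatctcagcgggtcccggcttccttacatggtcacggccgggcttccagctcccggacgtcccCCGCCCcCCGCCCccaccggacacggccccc
PXN, minus strand, chr12:120265731-120265980: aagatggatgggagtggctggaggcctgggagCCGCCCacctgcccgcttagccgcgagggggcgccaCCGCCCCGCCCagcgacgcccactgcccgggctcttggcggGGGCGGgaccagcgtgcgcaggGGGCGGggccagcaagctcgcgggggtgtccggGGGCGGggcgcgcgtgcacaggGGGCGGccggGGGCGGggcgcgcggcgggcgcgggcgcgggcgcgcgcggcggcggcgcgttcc
Both stretches were rich in G and C, 76.4% for TGFB1I1 and 83.6% for PXN, against 50.8% before the outer start given for LPXN. A stretch inside TGFB1I1, before its innermost start, held a CArG box, the motif of serum response factor (1.29% of windows), and LPXN held TGANTCA, the motif of AP-1 (7.71% of windows). These sites are shown with the motif in capitals, since no other member window held either motif.
TGFB1I1, plus strand, chr16:31473144-31473173: tggaggggagCCAAATTTGGcttgggtgaa
LPXN, minus strand, chr11:58578300-58578329: ggaggttctaacTGAGTCAcgacgggaaag
Each match describes the letters alone.

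Probe intensities were corrected for background, quantile-normalized and put on a log2 scale, and a probe counted as above background on an array at a detection p under 0.01. A difference was called at an adjusted p under 0.05 over the 20912 probes that passed a filter on low signal. The 3 such probes of the family, 1 per gene, are described below, and levels are not set against each other between probes. Per array, 31.7 to 38.3% of all probes were above background, and the lowest such signal was 5.91 to 6.52 on the log2 scale. PXN and LPXN were above background on all 48 arrays. Of the osteoblast-lineage markers, RUNX2, COL1A1, SPARC and ALPL were above background on every array and SPP1 on 39 of 48. SP7 was on 0, COL1A2 and IBSP on 1 each and BGLAP on 2. The blood cell markers PTPRC, CD3E and HBB and the epithelial markers CDH1 and KRT19 were on 0. The blood cell markers CD14, LCP1 and CD68 were on 5, 46 and 48, and the epithelial EPCAM, KRT8 and KRT18 on all 48. Of the endothelial markers CDH5 was on 0, PECAM1 on 3, KDR on 7 and TEK on 19.

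**Figure D1:**
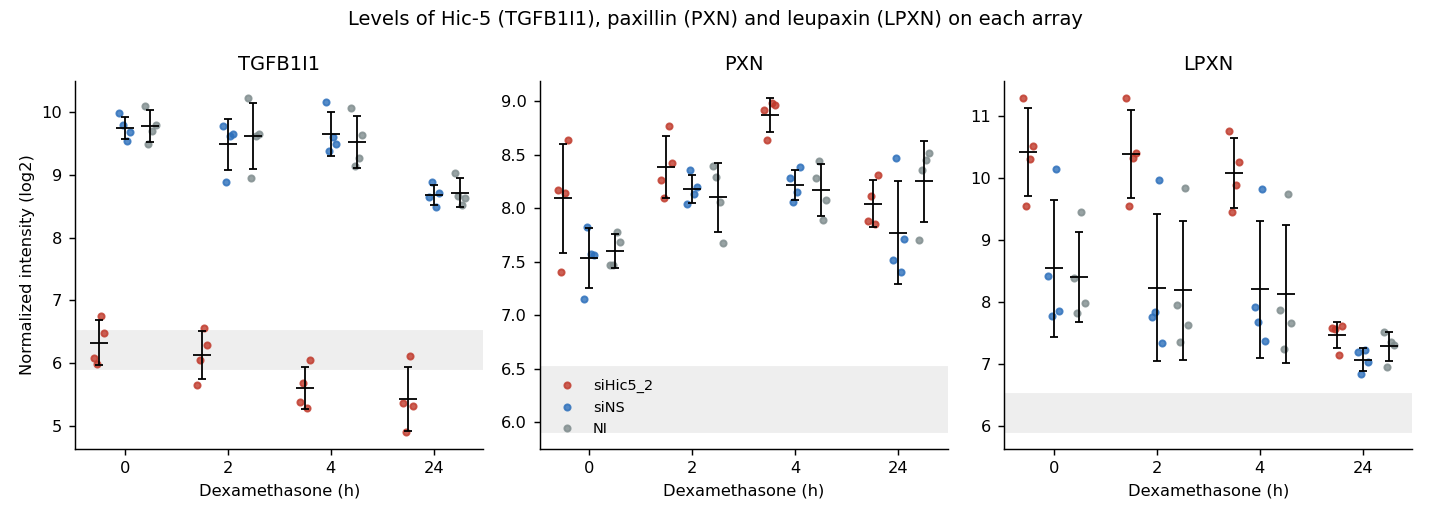
Normalized intensity (log2) of TGFB1I1, PXN and LPXN on each array (points) at each time of dexamethasone in hours, in siHic5_2, siNS and NI cells from left to right, with the mean and SD of 4 arrays in black; the grey band spans the lowest above-background signal of the 48 arrays, 5.91 to 6.52. TGFB1I1 points of siHic5_2 cells lie in or near the band, and LPXN points of all groups draw together at 24 h.

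TGFB1I1, the gene of Hic-5, was far lower in siHic5_2 cells than in siNS and NI cells at every time. On the log2 scale its level at 0 h was 6.08, 5.99, 6.75 and 6.49 on the siHic5_2 arrays, against 9.97, 9.79, 9.53 and 9.67 on the siNS arrays and 10.09, 9.48, 9.69 and 9.79 on the NI arrays. At 24 h it was 5.37, 4.91, 6.12 and 5.33 on the siHic5_2 arrays, against 8.65, 8.88, 8.49 and 8.70 on the siNS arrays and 9.03, 8.66, 8.51 and 8.62 on the NI arrays. Every siHic5_2 array lay below every siNS and NI array: over all times the 16 siHic5_2 arrays spanned 4.91 to 6.75 and the 32 siNS and NI arrays 8.49 to 10.22. The probe was above background on 2, 1, 0 and 0 of 4 siHic5_2 arrays at 0, 2, 4 and 24 h, and on 4 of 4 arrays of each siNS and NI group. The fitted level was 9.38% of that in siNS cells at 0 h and 9.93% at 2 h (log2 differences of -3.41 and -3.33, SE 0.25), values at the limit of detection, since few of these siHic5_2 arrays were above background. Where no siHic5_2 array was above background a bound stands for the fold, set by the lowest above-background signal or the probe's own value, whichever is higher. Against siNS cells this gave at least 10.6-fold lower (4 h) and at least 5.71-fold lower (24 h), and against NI cells at least 9.62- and 5.82-fold lower. The sizes and bounds hold for background-corrected values: without that correction the differences from siNS were -2.29, -2.14, -2.52 and -1.81 at 0, 2, 4 and 24 h, all called by limma, and smaller than the bounds at 4 and 24 h. The limma adjusted p-values against siNS were 3.74e-13, 2.66e-12, 7.28e-15 and 9.97e-13 from 0 to 24 h. An exact permutation test over 8 arrays, two-sided, gave 0.0286 throughout, its lowest possible value. Within the slides that held both groups the difference from siNS was between -4.18 and -2.36. The other TGFB1I1 probe was above background on 1 siNS array at 0 h, on 1 NI array each at 2 and 4 h and on 0 siHic5_2 arrays, did not pass the filter and cannot measure the loss. In such bulk samples, fewer cells with the RNA and less RNA per cell cannot be told apart.

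LPXN, the gene of leupaxin, was higher in siHic5_2 cells at 0, 2 and 4 h, by 3.66-, 4.48- and 3.68-fold over siNS cells. At 0 h its log2 level was 11.29, 9.56, 10.31 and 10.53 on the siHic5_2 arrays numbered 1 to 4, against 8.42, 7.78, 10.15 and 7.86 on the siNS arrays and 8.39, 7.83, 9.45 and 7.99 on the NI arrays. The arrays numbered 3 of both controls stood high. In siNS cells that array, at 10.15, lay in the range of the siHic5_2 arrays, so these groups overlapped. In NI cells it was 9.45, just below the lowest siHic5_2 array, 9.56. At 2 h the levels were 11.30, 9.56, 10.33 and 10.41 on the siHic5_2 arrays, against 7.77, 7.85, 9.98 and 7.35 on the siNS arrays and 7.96, 7.36, 9.84 and 7.64 on the NI arrays. At 4 h they were 10.77, 9.45, 9.89 and 10.26 on the siHic5_2 arrays, against 7.93, 7.69, 9.83 and 7.38 on the siNS arrays and 7.88, 7.25, 9.75 and 7.67 on the NI arrays. The same control number was the high one at each of these times. At 24 h the levels were 7.58, 7.57, 7.16 and 7.62 on the siHic5_2 arrays, against 7.20, 6.85, 7.24 and 7.04 on the siNS arrays and 7.53, 6.96, 7.37 and 7.32 on the NI arrays. There the control arrays numbered 3 no longer stood out, and all 12 arrays lay between 6.85 and 7.62, above the lowest above-background signals.

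The LPXN differences from siNS were 1.87, 2.16 and 1.88 at 0, 2 and 4 h (SE 0.56; limma adjusted p = 0.014, 0.00443 and 0.011), and 0.40 at 24 h (adjusted p = 0.686; 95% confidence interval -0.74 to 1.54). From NI they were 2.01, 2.20 and 1.95 (adjusted p = 0.00796, 0.00384 and 0.0079 by limma) and 0.19 at 24 h (adjusted p = 0.86). The two-sided exact permutation p against siNS was 0.0571 at 0, 2 and 4 h and 0.0857 at 24 h, where 0.0286 is the smallest possible. Over 0 to 4 h the 12 siHic5_2 arrays spanned 9.45 to 11.30, the 6 control arrays numbered 3 spanned 9.45 to 10.15, and the 18 control arrays of the other numbers 7.25 to 8.42. Without number 3 in any group the differences from siNS were 2.44, 2.77 and 2.49 at 0, 2 and 4 h. The calls against siNS ended without number 1 (1.54, 1.71 and 1.56; limma adjusted p = 0.151, 0.106 and 0.119) and without number 4 (1.60, 1.86 and 1.55; limma adjusted p = 0.162, 0.1 and 0.16). At 0 h the call also ended without siHic5_2 array 1 (1.58), siNS array 2 (1.61) or siNS array 4 (1.64), and at 4 h without siNS array 4 (1.61). The calls against NI ended without number 1 (1.71, 1.82 and 1.64) or number 4 (1.83, 2.01 and 1.74). Within slides that held both groups the difference from siNS ranged from 0.42 to 2.75 over 0 to 4 h and from -0.07 to 0.73 at 24 h.

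What sets the control arrays numbered 3 apart was not tested. Their share of probes above background over 0 to 4 h was 32.3 to 36.3%, against 33.1 to 37.3% on the control arrays of the other numbers, and they came from 4 slides. On the same arrays TGFB1I1 was 9.26 to 9.69, inside the 8.88 to 10.22 of the other control arrays. Since leupaxin is a blood cell protein, the blood markers stand beside it: the summed linear intensity of the 6 with a probe was 873 to 1350 on siHic5_2 arrays over 0 to 4 h, against 587 to 1750 on siNS arrays and 534 to 1770 on NI arrays. Over all times it was 534 to 828 on the siNS arrays numbered 3, while the arrays of both controls that reached over 828 were those numbered 1 (1340 to 1770). LCP1, an actin-bundling protein of leukocytes that tumour lines also make, was 7.66 to 9.69 on the log2 scale on the siHic5_2 arrays over all times, against 5.74 to 8.14 on siNS arrays and 6.06 to 7.83 on NI arrays. Its highest control values were on arrays numbered 3, which reached 8.14 in siNS and 7.83 in NI cells, against 7.67 and 7.68 on the other numbers. Over all times CD68 was 7.7 to 9.01 on the siHic5_2 arrays. It was 8 to 10.53 on siNS and 7.93 to 10.49 on NI arrays. Its highest control values were on arrays numbered 1, 9.96 to 10.53 in siNS and 10.11 to 10.49 in NI cells. On the other control numbers it reached 8.73 in siNS and 8.79 in NI cells, inside the siHic5_2 range. On those numbered 3 it was 8.09 to 8.43 in siNS and 8.07 to 8.59 in NI cells. The part of these markers in the LPXN difference was not tested.

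**Figure D2:**
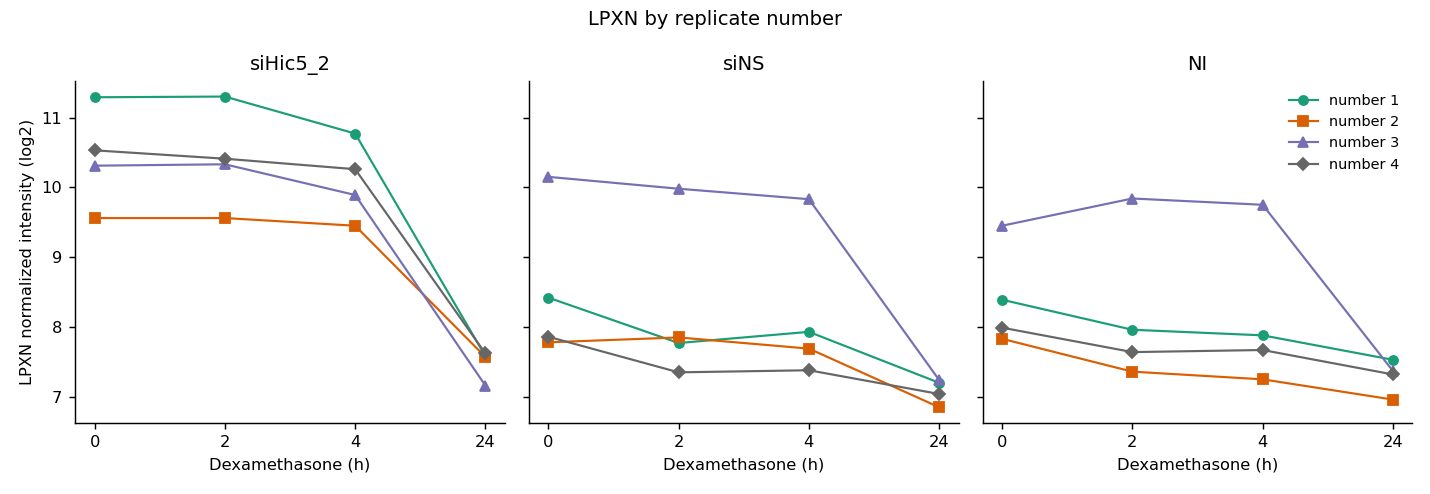
LPXN normalized intensity (log2) against hours of dexamethasone in siHic5_2, siNS and NI cells, one line per replicate number from the labels. In siNS and NI cells the arrays numbered 3 lie at 9.45 to 10.15 from 0 to 4 h and the other numbers at 7.25 to 8.42; at 24 h every line ends between 6.85 and 7.62.

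PXN, the gene of paxillin, was higher in siHic5_2 cells at 4 h, by 1.58-fold over siNS cells. Its log2 level there was 8.92, 8.64, 8.98 and 8.96 on the siHic5_2 arrays, against 8.28, 8.06, 8.15 and 8.38 on the siNS arrays and 8.28, 8.44, 7.89 and 8.08 on the NI arrays. Every siHic5_2 array was above every control array at that time. The difference from siNS was 0.66 (SE 0.21; limma adjusted p = 0.0178; two-sided exact permutation p = 0.0286) and from NI 0.70 (limma adjusted p = 0.0109). The call against siNS ended without siHic5_2 array 4 (0.63, limma adjusted p = 0.0501) or siNS array 2 (0.60, limma adjusted p = 0.0522), and without number 1 (0.66), 3 (0.60) or 4 (0.68) in all groups. The call against NI ended without number 3 (0.57) or 4 (0.64).

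At 0 h PXN was 8.17, 7.40, 8.14 and 8.64 on the siHic5_2 arrays, against 7.15, 7.82, 7.57 and 7.56 on the siNS arrays and 7.47, 7.47, 7.78 and 7.68 on the NI arrays. The second siHic5_2 array was among the control values and the other 3 lay above them. The difference of 0.56 from siNS did not pass over all probes (limma adjusted p = 0.052, 95% confidence interval 0.14 to 0.99) but did with 1 probe per gene (limma adjusted p = 0.0431), and without siHic5_2 array 2 it was 0.79 (limma adjusted p = 0.00505). It also passed without siNS array 2 (0.66) or number 2 in all groups (0.89). Against NI the difference at 0 h was 0.49 (limma adjusted p = 0.0952), and it passed without siHic5_2 array 2 (0.72) or number 2 in all groups (0.67). At 2 h it was 0.20 (95% confidence interval -0.22 to 0.63) and at 24 h 0.27 (-0.16 to 0.69) against siNS, and 0.28 and -0.21 against NI, with limma adjusted p-values of 0.569, 0.417, 0.392 and 0.523. Within slides the difference from siNS was 0.13 to 0.82 over 0 to 4 h and -0.59 to 0.60 at 24 h.

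Of the 3 genes, 2 were called against siNS at 0 and 2 h, 3 at 4 h and 1 at 24 h. Among all 20912 probes 20.8, 20.6, 26 and 24.3% were called at these times, so a call in itself was common. The same numbers of the 3 were called against NI, where 21.8, 21, 27.4 and 26.6% of probes were. Against both controls the calls were TGFB1I1, the siRNA target, at every time, LPXN at 0, 2 and 4 h and PXN at 4 h. Between siNS and NI cells limma called 0 of the 3 genes at any time and 0% of all probes, with 1 of the 3 at an unadjusted p under 0.05 at 24 h (PXN, difference -0.48) and 0 at the other times. At that unadjusted p there were 268, 616, 262 and 432 of 20912 probes at 0, 2, 4 and 24 h. The fit left arrays unpaired, yet siNS and NI arrays of equal number deviated mostly alike from their group means. Their correlation was 0.29 to 0.743, 0.233 to 0.662, 0.17 to 0.734 and -0.0118 to 0.707 at these times. An unpaired test is then conservative, so the lack of calls does not show siNS and NI cells to be alike. Nor were siNS and NI independent controls. With the replicate number as a block over all groups, siHic5_2 included, 0 probes were called too.

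**Figure D3:**
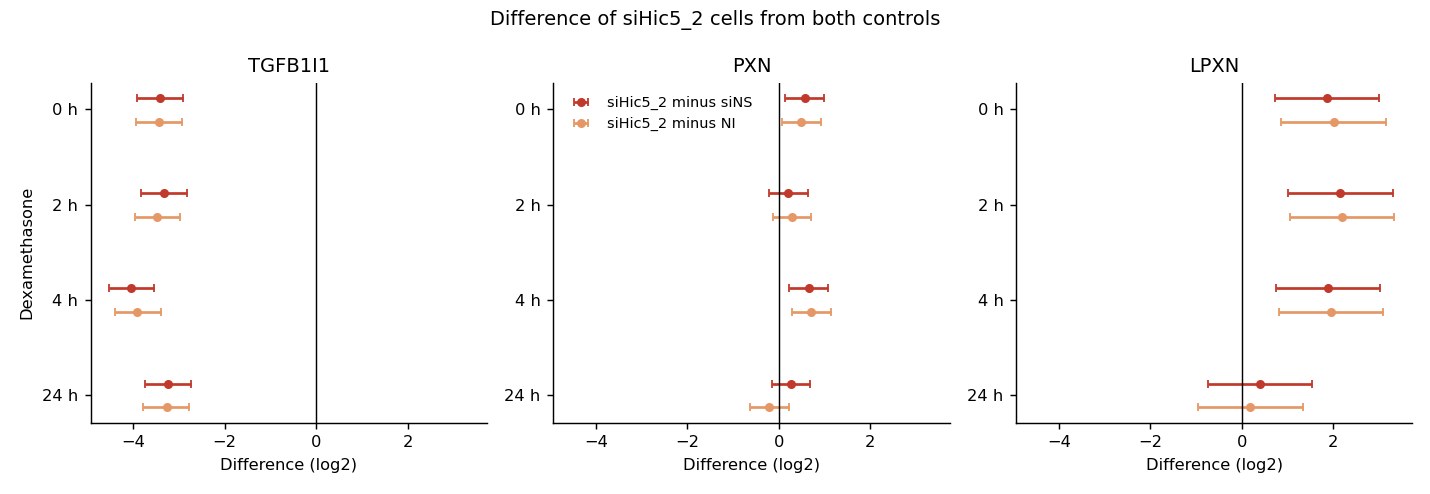
Difference (log2) of siHic5_2 cells from siNS and from NI cells at each time of dexamethasone, with 95% confidence intervals from the limma model of 48 arrays. TGFB1I1 lies below 0 at every time, LPXN above 0 from 0 to 4 h, and PXN is furthest above 0 at 4 h; the TGFB1I1 points at 4 and 24 h rest on arrays not above background, so that only the bounds hold there.

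With hormone, TGFB1I1 fell at 24 h in siNS and NI cells, and was called lower in siHic5_2 cells at the limit of detection. In siNS cells it was 47.9% of its 0 h level (difference -1.06, SE 0.25; limma adjusted p = 0.000737) and in NI cells 48% (-1.06, adjusted p = 0.000782). The 24 h arrays of both controls all lay below all of their 0 h arrays, and every same-numbered pair showed the fall, by 0.82 to 1.32. In siHic5_2 cells, with no array above background at 24 h, TGFB1I1 was at least 1.12-fold lower than at 0 h (limma adjusted p = 0.00487), a call that ended without number 4 in all groups (limma adjusted p = 0.0827). At 2 h the difference was -0.18 in siHic5_2 cells, where 1 array at 2 h and 2 at 0 h were above background, -0.26 in siNS and -0.15 in NI cells, and at 4 h -0.09 in siNS and -0.25 in NI cells, none of them called. At 4 h in siHic5_2 cells the bound was at least 1.05-fold lower (limma adjusted p = 0.0615, or 0.00691 with the replicate number as a fixed block within a state and 0.00976 as a random one). It passed without the 0 h array numbered 2 (limma adjusted p = 0.049), the 4 h array numbered 4 (limma adjusted p = 0.0351) or number 2 in all groups (limma adjusted p = 0.0427).

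LPXN fell at 24 h in siHic5_2 cells to 13% of its 0 h level (difference -2.94, SE 0.56; limma adjusted p = 6.4e-05; -2.33 without background correction) and in siNS cells to 36% (-1.47, adjusted p = 0.04). In NI cells it was 46% of the 0 h level (-1.12, 95% confidence interval -2.26 to 0.02; limma adjusted p = 0.132, or 0.00376 with the fixed and 0.0247 with the random block). Between same-numbered arrays the 24 h level was lower than the 0 h level for 4 of 4 numbers in each state. The differences were -3.72, -1.98, -3.15 and -2.92 in siHic5_2 cells, against -1.22, -0.93, -2.91 and -0.82 in siNS cells and -0.86, -0.88, -2.08 and -0.67 in NI cells. In both controls number 3, the one with the high early level, moved furthest. The siNS call ended without the 0 h array numbered 1 (-1.51), the 0 h array numbered 3 (-0.94, limma adjusted p = 0.238) or any one of the 24 h arrays (-1.52 to -1.39), and without number 1 (-1.55), 2 (-1.65) or 4 (-1.69) in all groups. The response of siHic5_2 cells minus that of siNS cells was -1.47 (SE 0.80; limma adjusted p = 0.457), which passed with the fixed block within a state (SE 0.44, adjusted p = 0.0346) and not with the random one (SE 0.57, adjusted p = 0.131) or the block over all groups (SE 0.61, adjusted p = 0.203). At 2 and 4 h LPXN differed from 0 h by -0.02 and -0.33 in siHic5_2, -0.32 and -0.34 in siNS and -0.21 and -0.28 in NI cells, none called.

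PXN rose at 4 h in siHic5_2 and siNS cells. It was 1.72-fold over the 0 h level in siHic5_2 cells (difference 0.79, SE 0.21; limma adjusted p = 0.0107) and 1.61-fold in siNS cells (0.69, adjusted p = 0.0374). It was higher for 4 of 4 numbers in both. In NI cells at 4 h the difference was 0.57 (95% confidence interval 0.14 to 1.00; limma adjusted p = 0.111), also higher for 4 of 4, and the adjusted p was 0.0406 with the random and 0.0575 with the fixed block within the state. In siNS cells PXN was 8.04, 8.36, 8.13 and 8.20 at 2 h, against 7.15, 7.82, 7.57 and 7.56 at 0 h, with no overlap. That difference of 0.66 had a limma adjusted p of 0.0747, and of 0.0321 with the fixed and 0.0212 with the random block. At 24 h PXN was called in NI cells (0.65, limma adjusted p = 0.0147), while it differed by -0.05 in siHic5_2 cells (95% confidence interval -0.48 to 0.38) and 0.25 in siNS cells (-0.18 to 0.67). The call at 4 h in siHic5_2 cells ended without the 0 h array numbered 2 (0.56, limma adjusted p = 0.107) and without number 2 (0.64) or 3 (0.77) in all groups. The siNS call ended without the 0 h array numbered 1, 3 or 4 or the 4 h array numbered 1, 3 or 4 (0.57 to 0.71), or number 1 (0.55), 3 (0.73) or 4 (0.65), and the NI call at 24 h without array 3 (0.59) or 4 (0.57) or those numbers in all groups (0.65 and 0.59).

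Of the 3 genes, limma called 0, 1 and 2 at 2, 4 and 24 h of hormone in siHic5_2 cells, 0, 1 and 2 in siNS cells, and 0, 0 and 2 in NI cells. Among all probes 2.34, 9.69 and 29.3% were called in siHic5_2, 3.91, 6.38 and 32.7% in siNS and 2.33, 6.72 and 32.3% in NI cells. At an unadjusted p under 0.05 the counts of 0 were 0 in siHic5_2 and 1 in siNS cells at 2 h, and 1 at both 2 and 4 h in NI cells. Of all 20912 probes, 1787 in siHic5_2 and 2927 in siNS cells at 2 h met that unadjusted p. In NI cells 1868 did at 2 h and 3135 at 4 h. The 3 comparisons of a state share its 0 h arrays. For the difference in hormone response between siHic5_2 and siNS cells limma called 0 of the 3 at 2, 4 or 24 h. Of all probes it called 0.11, 0.383 and 2.81%. At an unadjusted p under 0.05 there were 0 of the 3 genes, beside 828, 1518 and 2690 of 20912 probes. For PXN that difference was -0.36 (95% confidence interval -0.96 to 0.24), 0.09 (-0.51 to 0.70) and -0.30 (-0.90 to 0.31). For LPXN it was 0.29 (-1.32 to 1.90) and 0.01 (-1.60 to 1.62) at 2 and 4 h, and for TGFB1I1 0.08 (-0.63 to 0.79) at 2 h, which rests on the few siHic5_2 arrays above background. No size is given for TGFB1I1 at 4 and 24 h, where siHic5_2 arrays were not above background.

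**Figure D4:**
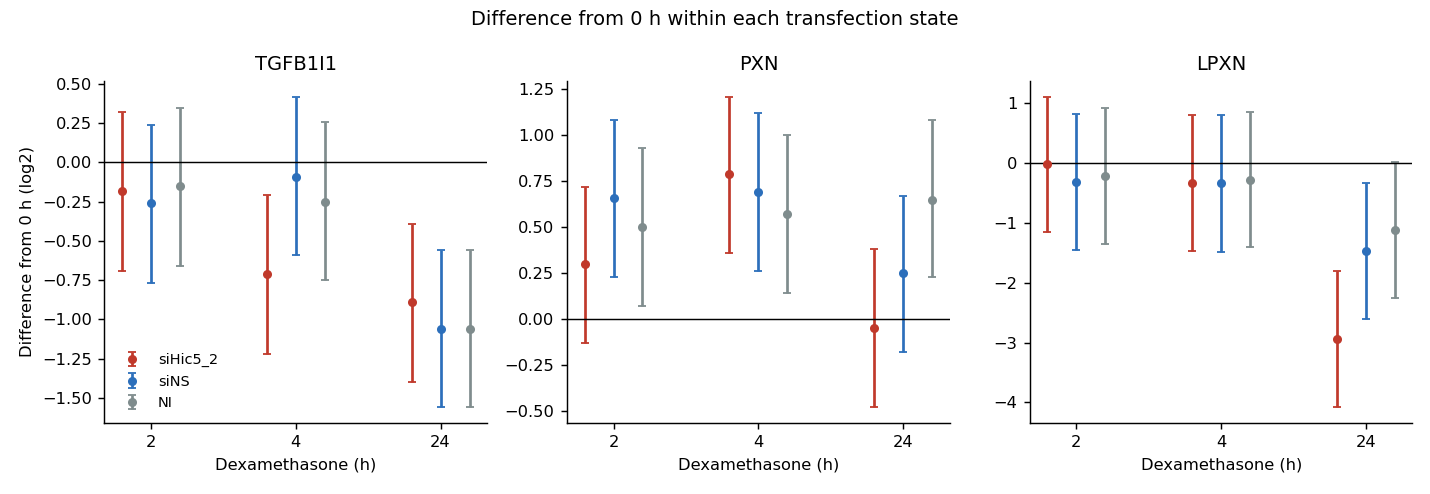
Difference (log2) from 0 h after 2, 4 and 24 h of dexamethasone in siHic5_2, siNS and NI cells, with 95% confidence intervals from the limma model; the vertical scales differ between genes. TGFB1I1 and LPXN lie furthest below 0 at 24 h. PXN lies above 0 at 2 and 4 h in each state, with an interval that includes 0 in siHic5_2 cells at 2 h. In NI cells PXN is furthest above 0 at 24 h (0.65). LPXN at 24 h is -2.94 in siHic5_2, -1.47 in siNS and -1.12 in NI cells. The TGFB1I1 points of siHic5_2 cells at 4 and 24 h rest on arrays not above background.

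In order of level over the 12 groups, TGFB1I1 ran from 9.77 ± 0.25 in NI cells at 0 h to 5.43 ± 0.51 in siHic5_2 cells at 24 h (log2, SD, n = 4 each). The siNS and NI groups came first and the 4 siHic5_2 groups last. One pair of neighbours in that order had ranges that did not overlap, siHic5_2 at 0 h (6.33 ± 0.36) and siNS at 24 h (8.68 ± 0.16). PXN ran from 8.87 ± 0.16 in siHic5_2 cells at 4 h to 7.53 ± 0.28 in siNS cells at 0 h. LPXN ran from 10.42 ± 0.71 in siHic5_2 cells at 0 h to 7.08 ± 0.18 in siNS cells at 24 h, with the siHic5_2 groups of 0, 2 and 4 h first and the 24 h groups last. For PXN and LPXN all neighbours overlapped.

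The genes whose 12 group means followed a member most closely are given as a description, since the points share arrays. For TGFB1I1 they were RRM2, a subunit of ribonucleotide reductase (Pearson r = 0.994), SUZ12 of the polycomb complex that methylates histone H3 (0.994) and ZW10 of the spindle checkpoint (0.993). That likeness rests on the gap between siHic5_2 and the other groups. RRM2 was 7.93 at 0 h in siHic5_2 cells, against 10.63 in siNS cells. Over the 8 siNS and NI groups alone the closest were the small nucleolar RNA SNORD83B (0.997), the translation repressor EIF4EBP1 (0.997) and the protease BACE2 (0.996). For LPXN they were ENG, the TGF-beta co-receptor endoglin (0.986), RABL2B, a small GTPase (0.985), and the spindle checkpoint gene MAD1L1 (0.985). ENG was 8.76 at 0 h and 6.36 at 24 h in siHic5_2 cells, against 7.03 and 5.82 in siNS cells. For PXN they were SNN, which encodes stannin (0.914), ZNF337, a zinc finger gene (0.91), and the ribosomal pseudogene RPL13P5 (0.909).

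Of 34 known partners of the family, chosen from general knowledge, 27 were measured with 1 probe per gene. In siHic5_2 against siNS cells 6 rose and 2 fell at 0 h, 6 and 1 at 2 h, 12 and 0 at 4 h, and 9 and 3 at 24 h. Their median differences were 0.15, 0.16, 0.23 and 0.16, against 0.01, 0.02, 0.03 and 0.02 over all 11886 genes. The share called was 29.6, 25.9, 44.4 and 44.4%, against 25.9, 25.8, 30.3 and 29.7% of all genes. Over all genes 1638, 1704, 1933 and 1876 rose, and 1440, 1365, 1674 and 1653 fell. At 0 h the adaptor NCK2 rose by 0.91 on the log2 scale (SE 0.17; limma adjusted p = 8.79e-05) and the kinase PAK2, which lies downstream of Rac and Cdc42, by 0.76 (SE 0.10; adjusted p = 2.19e-07). CSK, the kinase that restrains Src, fell by 0.36 and the small heat shock protein HSPB1 fell by 0.27 at 0 h. At 24 h the adhesion protein TNS3 rose by 0.87 and GIT1, an Arf GTPase-activating scaffold that binds paxillin, by 0.72. PARVA, the parvin that joins integrin-linked kinase to actin, fell by 1.01 (SE 0.12; limma adjusted p = 1.75e-08) and SMAD3, the TGF-beta signal transducer that Hic-5 binds, fell by 0.52.

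Of 38 other LIM-domain adaptors 29 were measured. In siHic5_2 against siNS cells 1 rose and 6 fell at 0 h, 4 and 6 at 2 h, 1 and 6 at 4 h, and 8 and 3 at 24 h. The medians were -0.03, -0.04, -0.04 and 0.06. The share called was 24.1, 34.5, 24.1 and 37.9%, against 25.9, 25.8, 30.3 and 29.7% of all genes. PDLIM7, an actin-associated scaffold, fell by 1.25 on the log2 scale at 0 h (SE 0.20; limma adjusted p = 1.18e-05) and by 0.99 at 24 h. PRICKLE1, of planar cell polarity, fell by 1.30 at 0 h, and the actin-binding ABLIM3 was at least 1.45-fold higher. At 24 h PDLIM4 rose by 1.65, with 1 of 4 siNS arrays above background, and FHL2, a LIM-only coregulator, by 1.34 (SE 0.22; limma adjusted p = 8.38e-06), while the adhesion protein LIMS2 fell by 1.05. With hormone, 24 h against 0 h in siNS cells, 2 of the 29 rose and 16 fell (median -0.56). In the same comparison 9 partners rose and 7 fell (median 0.13), beside 39.6% of all genes called with a median of -0.01. FHL2 was 9.11 at 24 h, against 12.86 at 0 h, in siNS cells.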

How the data were processed

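Gene expression was measured on 48 single-colour Illumina bead arrays, 12 groups of 4. Per the file headers, the deposited raw table holds unnormalized bead intensities and detection p-values for 47323 probes, besides 887 control rows. The deposited p-value columns stand under wrong array names (0 matched their own array and 32 that of another), so detection p-values were recomputed from 770 control rows. The rows carry no names and were taken as the negative controls; with them the recomputed values differed by 0.0013 or less from the deposited ones in the 32 columns matched to another array. The authors also deposited processed log2 values; R 2.15.3 and limma 3.14.4 were used, per the submitters' processing notes, and their normalization was not given in the sources used here. Those values differed from the ones computed here by 0.263 or less.

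Normalization here used limma 3.58.1 (R 4.3.3) and its neqc function: normexp background correction, an offset of 16, quantile normalization and log2. Probes with a detection p under 0.01 on at least 4 arrays were kept (20912). Names came from the platform annotation, in which 30113 probes had 1 gene, 8 several and 17202 none. One limma model with a mean for each of 12 groups was fitted to the kept probes, with Benjamini-Hochberg adjustment per comparison and a call at an adjusted p under 0.05. Lists used 1 probe per gene, the one with the highest mean (11886 genes). Single values had two-sided exact permutation tests. The steps were checked on simulated data. Median array intensity was 133.6 to 193, and the number of arrays limits the precision.

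Replicate numbers come from the labels. Deviations of same-numbered arrays from their group means were correlated. Between 0 h and later times the range was 0.207 to 0.731 (NI), 0.216 to 0.726 (siNS) and 0.0796 to 0.47 (siHic5_2). Over all pairs of times it was 0.0256 to 0.748, 0.0948 to 0.736 and 0.0221 to 0.501. The main fit had no block, and the number was a block within a state only in alternative fits. At the same time the correlation was -0.0118 to 0.743 between siNS and NI. Between siHic5_2 and siNS it was -0.222 to 0.0785, so the values gave no sign of pairing by number. Between siHic5_2 and NI it was -0.195 to 0.302, and 7 of 16 same-numbered pairs were over 0.1. Whether these arrays share a culture or day cannot be told from such correlations. The genes, lists and tests were chosen with earlier results of these data known. Genes named besides the 3 members were, in each list, up to 2 with the largest rise and 2 with the largest fall among those called at 0 and at 24 h, and the 3 closest by group means. Alternatives were the authors' values, other filters and background, 1 probe per gene, replicate and slide blocks, fewer arrays, NI in the control and the other TGFB1I1 probe. Sequences are from RefSeq (GRCh38.p14), matched by symbol for 3 of 3 genes.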

Additional observations from a re-analysis of the deposited data

Results flagged for a closer look

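Over 48 groups of 4 arrays, counting the 4 probes of the 3 genes, 2 had a lowest array far from the rest of its group, by a test that chance meets in about 1 of 20 groups. PXN in siHic5_2 cells at 4 h had its lowest array, numbered 2, at 8.64 on the log2 scale with the nearest at 8.92, a gap of 0.83 of the group's range. LPXN in siHic5_2 cells at 24 h had its lowest array, numbered 3, at 7.16 with the nearest at 7.57, a gap of 0.91 of the range.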

How the results depend on the processing

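The TGFB1I1 differences of siHic5_2 from both controls kept direction and call under every alternative with its main probe, but not size: without background correction they were -2.29, -2.14, -2.52 and -1.81 from siNS and -2.31, -2.26, -2.40 and -1.84 from NI at 0, 2, 4 and 24 h, against -3.41, -3.33, -4.04 and -3.25 and -3.44, -3.47, -3.91 and -3.27 as fitted. The other TGFB1I1 probe gave fitted values of -0.99 against siNS at 0 h, called (limma adjusted p = 5.22e-05), and -0.44, -0.08 and -0.30 at 2, 4 and 24 h, without calls; none is a size, since 1 siNS array at 0 h and no other of these arrays was above background. The LPXN differences from siNS and NI kept direction and side of the threshold under every setting other than leaving arrays out. PXN against siNS at 0 h (0.56) passed with a filter on 24 arrays, 1 probe per gene, the replicate block (limma adjusted p = 0.0462) or the slide as a block, and against the mean of both controls (0.53). With the slide as a block PXN against NI passed at 0 h (0.49) and not at 4 h (0.48), and 4 h against 0 h in NI cells passed (0.66). Without background correction the 24 h fall of TGFB1I1 in siHic5_2 cells (-0.41) and of LPXN in siNS cells (-1.01) was not called. With no filter, which tests more probes, LPXN at 24 h (-1.47) and PXN at 4 h (0.69) in siNS cells were not called. With only the groups compared, PXN at 4 h in siHic5_2 cells (0.79) was not called and LPXN at 24 h in NI cells (-1.12) was. With the replicate block over all groups, TGFB1I1 at 4 h in siHic5_2 cells (-0.71) and LPXN at 24 h in NI cells (-1.12) passed. With the block within a state, added after seeing the data, so did those and PXN at 2 h in siNS cells (0.66), as a random but not a fixed block also PXN at 4 h in NI cells (0.57), and as a fixed but not a random block the larger LPXN fall in siHic5_2 than in siNS cells (-1.47). No block by replicate number changed any other call of the 3 genes. The called LIM-domain adaptors at 0 h numbered 11 with the replicate block, against 7, while over all 20912 probes 5445 were called, against 4349. Where a call changed, the cause was not tested beyond the changes named.

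Leaving out arrays, or a number in all groups, gave these ranges. LPXN minus siNS was 1.54 to 2.44, 1.71 to 2.77 and 1.55 to 2.49 at 0, 2 and 4 h, and minus NI 1.71 to 2.39, 1.82 to 2.77 and 1.64 to 2.56. LPXN at 24 h against 0 h in siNS cells was -1.73 to -0.94, and siNS minus NI at 2 h -0.54 to 0.58. PXN minus siNS was 0.38 to 0.89 at 0 h and 0.60 to 0.74 at 4 h, and minus NI 0.30 to 0.72 and 0.57 to 0.87. PXN at 4 h against 0 h was 0.56 to 0.97 in siHic5_2 and 0.55 to 0.84 in siNS cells, and the difference of these -0.21 to 0.29. PXN at 24 h in NI cells was 0.57 to 0.84. Fitted values of TGFB1I1 in siHic5_2 cells were -0.86 to -0.47 at 4 h and -1.12 to -0.72 at 24 h, which show the calls and are no sizes.

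Over all probes, the hormone counts moved most. With the fixed block within a state, 823, 1685 and 893 probes were called at 2 h in siHic5_2, siNS and NI cells, against 489, 817 and 487, and 3530, 2125 and 2264 at 4 h, against 2027, 1334 and 1406; as a random block they were 798, 1580 and 838 at 2 h and 3398, 2008 and 2215 at 4 h. The difference in response counted 53, 254 and 1458 probes with the fixed block and 50, 273 and 1346 with the random one at 2, 4 and 24 h, against 23, 80 and 587. It counted 163 at 4 h with the replicate block over all groups. With only the groups compared, 427 and 226 were called at 2 h in siNS and NI cells, 1241 and 914 at 4 h in siHic5_2 and NI cells, 2720 for siHic5_2 minus NI at 2 h (against 4389), and 11 and 389 for the difference in response at 2 and 24 h. The slide as a block gave 497 at 2 h in siNS cells. With 1 probe per gene fewer features were tested: 3607, 3743 and 1323 were called at 4 h for siHic5_2 minus siNS, siHic5_2 minus NI and 4 h against 0 h in siHic5_2 cells, against 5446, 5724 and 2027. Without a filter 2 probes differed between siNS and NI at 24 h. TGFB1I1 in siHic5_2 cells lies at the limit of the signal over background, so its hormone response there has only bounds at 4 and 24 h, and its values at 0 and 2 h rest on 2 and 1 arrays above background.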
